A study of Canis lupus familiaris with 2 samples.

Results

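The 10 ribbon synapse genes examined here were *CACNA1F*, *CACNA2D4*, *CABP4*, *CTBP2*, *BSN*, *PCLO*, *STX3*, *CPLX3*, *CPLX4* and *ELFN1*, chosen by name and followed across the cell classes of the normal canine retina. All 10 were listed among the 34981 genes of the dog N350, and 8 were listed among the 19947 genes of the dog N354, where *CACNA2D4* and *ELFN1* were not listed by name. Both dogs were normal males of 40 weeks with no treatment, so each result rests on 2 animals of 1 sex and age. The neuroretina, the retina without its pigment epithelium, was punched out, dissociated and captured in droplets, and each messenger RNA was counted once near its 3′ end through a unique molecular identifier (UMI).

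Rods, cones and bipolar cells release glutamate continuously, and a plate-like organelle, the ribbon, holds vesicles beside the calcium channels that trigger their fusion. *CACNA1F* encodes the pore of the L-type calcium channel at the photoreceptor ribbon, *CACNA2D4* an accessory subunit of that channel, and *CABP4* a calcium-binding protein that tunes it. *CTBP2* gives rise to RIBEYE, the main protein of the ribbon, and *BSN* and *PCLO* encode the scaffold proteins bassoon and piccolo. *STX3* encodes the syntaxin of ribbon terminals, *CPLX3* and *CPLX4* complexins that bind the fusion machinery, and *ELFN1* a rod protein that reaches across the cleft to the glutamate receptor of ON bipolar cells. Amacrine cells use conventional synapses without ribbons, and Müller glia form no ribbon at all.

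Cells were assigned to classes from the UMIs of marker genes, none of which is among the 10 genes. The 8900 cells of N350 (24030707 UMIs) gave 5320 rods, 285 cones, 330 bipolar cells, 247 amacrine cells, 91 horizontal cells and 988 Müller glia. The 4392 cells of N354 (9711202 UMIs) gave 2996 rods, 176 cones, 275 bipolar cells, 27 amacrine cells, 17 horizontal cells and 472 Müller glia. Horizontal cells, 17 in N354, fell short of the 20 cells per dog needed for a test, so only their levels are given. No class beyond those named had 20 cells in both dogs. Median UMIs per cell were lowest in rods, 1072 in N350 and 1014 in N354, against 7119 and 6241 in Müller glia. RNA from rods was found in the other classes too: the summed rod markers in cones, bipolar cells, amacrine cells, horizontal cells and Müller glia lay between 1.99% and 5.11% of their level in rods in N350 and between 1.27% and 3.44% in N354. These percentages are set beside those of the genes below as a guide only. The same markers chose the rods, and cells that also passed another gate were left out. This raises the markers in rods and caps them in the other classes. The 10 genes took no part in the gates, so their percentages have no such cap. The same holds for the bipolar and amacrine markers used below. It also holds for the Müller markers, which in amacrine cells were at 4.71% of their Müller level in N350. In N354, with 27 amacrine cells, they were at 10.0%. A total of 6 cell barcodes occurred in both dogs. Levels are UMIs of a gene per 10000 UMIs of all genes in a class, with exact Poisson 95% intervals that cover counting error only. The order of the genes' levels was not compared, since each gene is captured with its own efficiency.

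The plot of levels by class shows all 10 genes in N350 and the 8 listed genes in N354.

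**Figure D1:**
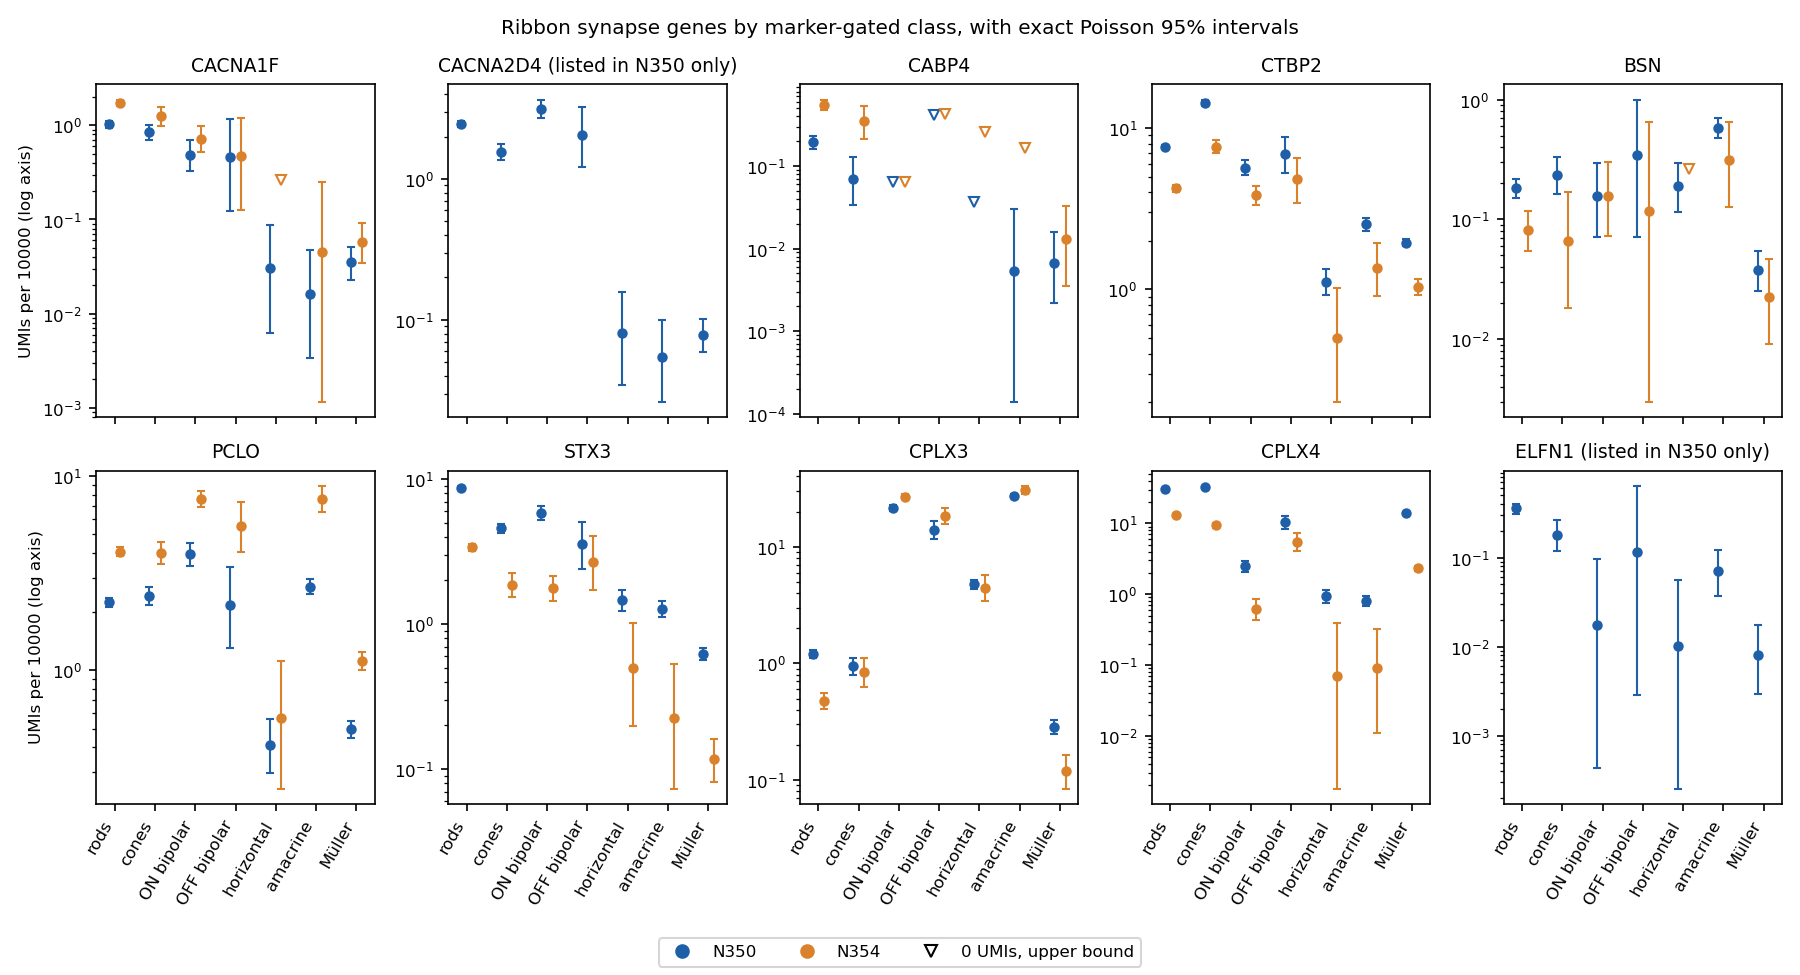
UMIs per 10000 (log axis) of each ribbon synapse gene in 7 marker-gated classes, with 1 point per dog that lists the gene, bars for exact Poisson 95% intervals and open triangles for the upper bound where no UMI was counted. *CACNA1F*, *CACNA2D4* and *STX3* were highest in rods, cones and bipolar cells, *CPLX3* in bipolar and amacrine cells, and *CPLX4* in rods and cones with a further high level in the Müller glia of N350 (14.1).

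The genes of the calcium channel differed in which ribbon cells held them. *CACNA1F* stood at 1.02 in rods (95% interval 0.947 to 1.10), 0.843 in cones and 0.534 in bipolar cells of N350. In N354 it stood at 1.73 (1.60 to 1.88), 1.26 and 0.686 in the same order. Both dogs thus had the channel gene highest in rods and lowest in bipolar cells, and the intervals of rods and cones overlapped in N350. The fall from rods to bipolar cells was 1.25 on the log2 scale (SE 0.24, lower in 2 of 2 dogs, edgeR adjusted p = 0.000448), and cones and rods were not separated by the test (log2 fold change -0.32, 95% interval -0.80 to 0.15, edgeR adjusted p = 0.375). The level in Müller glia was 3.42% of that in rods in N350 and 3.36% in N354, where the rod markers themselves were at 3.69% and 3.44%. In amacrine cells only 3 UMIs in N350 and 1 UMI in N354 were found.

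*CACNA2D4*, read in N350 alone and therefore without a test, was at 2.47 in rods (2.35 to 2.59), 1.56 in cones (1.36 to 1.78) and 2.93 in bipolar cells (2.56 to 3.33). Bipolar cells held 1.88 times the level of cones (exact conditional 95% interval 1.55 to 2.26), the reverse of the order seen for *CACNA1F*. Müller glia (0.0781), horizontal cells (0.0804) and amacrine cells (0.0542) lay at 3.16%, 3.25% and 2.19% of rods. The rod markers in the same classes were at 3.69%, 1.99% and 2.45%. Horizontal cells lay above their marker level, but from 8 UMIs, with an interval (0.0347 to 0.158) that reached below that level. S cones, the short-wavelength cones set apart by at least 10 UMIs of their opsin, held 2.63 against 1.40 in the other cones, a ratio of 1.88 (1.33 to 2.59) over 32 and 253 cells.

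*CABP4* was counted in photoreceptors and not in bipolar cells. It was counted 128 times in the rods and 10 times in the cones of N350, and 198 and 21 times in those of N354. No UMI was found among 785871 UMIs of bipolar cells in N350 or among 684799 in N354. A floor of 3 UMIs was set for the bipolar class of each dog. The rod level was 5.10 times that floor in N350 and 12.7 times in N354, and the cone level 1.83 and 7.94 times. These ratios leave out the counting error of the rod and cone levels, so they are not lower bounds. In the cones of N350 the interval (0.0334 to 0.128) reached below the floor (0.0382). The comparisons of bipolar cells with rods and with cones passed the test (edgeR adjusted p = 3.01e-06 against rods and 0.000156 against cones), and no fitted fold is given for a class without counts. Against cones the call was lost when only cells with at most 10% of their UMIs on 13 mitochondrial genes were kept (edgeR adjusted p = 0.0629). Rods were at 0.195 and cones at 0.0697 in N350, against 0.555 and 0.348 in N354, and the difference between cones and rods missed the threshold (log2 fold change -0.97, SE 0.39, lower in 2 of 2 dogs, edgeR adjusted p = 0.0967).

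Of the ribbon and scaffold genes, *CTBP2* was highest in cones, at 14.3 in N350 (13.7 to 15.0) and 7.67 in N354 (6.99 to 8.40), against 7.62 and 4.24 in rods and 6.08 and 4.02 in bipolar cells. Cones exceeded rods by 0.93 on the log2 scale (SE 0.20, higher in 2 of 2 dogs, edgeR adjusted p = 0.00168), and within each dog the ratio was 1.88 (1.79 to 1.98) and 1.81 (1.63 to 2.01). Bipolar cells lay 1.24 below cones (log2 fold change -1.24, SE 0.20, edgeR adjusted p = 9.34e-05) and were not separated from rods (-0.31, 95% interval -0.72 to 0.10, edgeR adjusted p = 0.263). Müller glia held 1.95 and 1.04 and amacrine cells 2.53 and 1.35. As a share of the rod level, the *CTBP2* of Müller glia was 25.6% and 24.5%, beside 3.69% and 3.44% for the rod markers. Counting near the 3′ end does not tell RIBEYE from the widely used nuclear form of *CTBP2*.

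*BSN* was higher in amacrine cells than in the ribbon classes of both dogs, with few UMIs in N354. Its level was 0.183 in rods, 0.237 in cones and 0.191 in bipolar cells of N350, and 0.0813, 0.0663 and 0.146 in N354, with as few as 4 UMIs in a class. The test separated neither cones from rods (log2 fold change 0.32, 95% interval -0.49 to 1.12) nor bipolar cells from rods (0.29, -0.56 to 1.14). Amacrine cells stood above these classes in both dogs, at 0.580 (0.476 to 0.701) and 0.316 (0.127 to 0.651). The N354 value rested on 7 UMIs, and its interval reached below the bipolar level. The 3 ribbon classes together lay below amacrine cells (log2 fold change -1.33, SE 0.31, lower in 2 of 2 dogs, edgeR adjusted p = 0.0017) and above Müller glia (1.73, SE 0.35, edgeR adjusted p = 0.000388). Without the dog as a block the call against amacrine cells was lost (edgeR adjusted p = 0.163).

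*PCLO* was at 2.23 in rods and 2.41 in cones of N350 and at 4.07 and 4.01 in N354, and the photoreceptors were not separated (log2 fold change 0.10, 95% interval -0.30 to 0.51). Bipolar cells were at 3.44 (3.04 to 3.87) and 7.13 (6.51 to 7.79), above rods by 0.61 on the log2 scale (SE 0.19, higher in 2 of 2 dogs, edgeR adjusted p = 0.0211). That call was lost when cells with more than 10% of UMIs on 13 mitochondrial genes were left out (0.05, edgeR adjusted p = 0.900), which kept 69 of 330 bipolar cells in N350 and 27 of 275 in N354. Bipolar cells held a median of 13.9% and 17.2% of their UMIs on those genes, rods 5.16% and 6.20%. The part of this difference in the result was not tested. The limit also changed the make-up of the bipolar class. With ON and OFF cells divided as below, ON cells went from 234 to 38 in N350 and from 236 to 8 in N354. OFF cells went from 38 to 14 and from 27 to 16. The part of this change in the loss of the call was not tested. Amacrine cells, at 2.70 and 7.63, were not separated from the ribbon classes (-0.03, 95% interval -0.37 to 0.31).

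Of the fusion genes, *STX3* was led by rods, at 8.72 (8.50 to 8.95) in N350 and 3.39 (3.20 to 3.59) in N354. Cones were at 4.57 and 1.87 and bipolar cells at 5.66 and 1.93, and these classes were not separated from each other (log2 fold change 0.03, 95% interval -0.53 to 0.59, edgeR adjusted p = 0.991). Cones lay 0.87 below rods (log2 fold change -0.87, SE 0.26, edgeR adjusted p = 0.0224) and bipolar cells 0.84 below (-0.84, SE 0.26, edgeR adjusted p = 0.0164), each in 2 of 2 dogs. With DESeq2 both calls were lost (adjusted p = 0.249 and 0.219). The call against bipolar cells was also lost with library totals in place of TMM factors (edgeR adjusted p = 0.0938). Amacrine cells at 1.28 and 0.226 and Müller glia at 0.621 and 0.117 were lower in both dogs, and the Müller level was 7.12% of rods in N350 and 3.44% in N354, beside 3.69% and 3.44% for the rod markers.

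The complexin genes differed between photoreceptors and bipolar cells in opposite directions. *CPLX3* was at 18.7 (17.7 to 19.6) in the bipolar cells of N350 and 25.4 (24.2 to 26.6) in those of N354, against 1.21 and 0.477 in rods and 0.948 and 0.845 in cones. Bipolar cells exceeded rods by 4.73 on the log2 scale (SE 0.34, edgeR adjusted p = 1.37e-09) and cones by 4.53 (SE 0.35, edgeR adjusted p = 6.77e-09), in 2 of 2 dogs. Amacrine cells, which make no ribbon, were higher still, at 27.4 and 30.7, and horizontal cells reached 4.76 and 4.47. The low *CPLX3* level of rods was 4.40% of the amacrine level in N350 and 1.55% in N354, while the amacrine markers in rods were at 2.95% and 1.03%. Set against bipolar cells, it was 6.46% and 1.88%, while the bipolar markers in rods were at 1.26% and 0.377%.

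*CPLX4* was at 30.6 (30.2 to 31.1) in rods and 32.8 (31.8 to 33.7) in cones of N350, and at 13.3 (12.9 to 13.7) and 9.39 (8.63 to 10.2) in N354. Cones were above rods in one dog and below in the other, and the pair was not separated (log2 fold change -0.21, 95% interval -0.79 to 0.38, edgeR adjusted p = 0.672). Bipolar cells stood at 4.06 and 1.31, below rods by 3.30 on the log2 scale (log2 fold change -3.30, SE 0.31, edgeR adjusted p = 6.67e-08) and below cones (-3.09, SE 0.31, edgeR adjusted p = 2.94e-07). Amacrine cells held 0.797 in N350 and 0.0903 in N354, that is 2.60% and 0.679% of the rod level, beside 2.45% and 1.79% for the rod markers.

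*ELFN1* was read in N350 alone. Rods were at 0.356 (0.312 to 0.405) and cones at 0.181 (0.118 to 0.265), and the 330 bipolar cells gave 2 UMIs. Amacrine cells held 0.0705 from 13 UMIs, which is 19.8% of the rod level and above the 2.45% of the rod markers. The level in Müller glia, 0.00808, was 2.27% of rods.

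Across the 8 genes tested in both dogs, the calls differed by comparison. In cones over rods 1 gene was higher (*CTBP2*) and 1 lower (*STX3*), beside 9.43% higher, 8.65% lower and 18.1% in either direction among all 11856 genes tested. In bipolar cells over rods 2 were higher (*CPLX3*, *PCLO*) and 4 lower (*CABP4*, *CACNA1F*, *CPLX4*, *STX3*), beside 15.5% and 14.9% of all genes (30.5% in either direction). In bipolar cells over cones 1 was higher (*CPLX3*) and 4 were lower (*CABP4*, *CACNA1F*, *CPLX4*, *CTBP2*), beside 10.7% and 11% of all genes (21.7% in either direction). The 3 ribbon classes together were above Müller glia in 6 of the 8 (*BSN*, *CACNA1F*, *CPLX3*, *CTBP2*, *PCLO*, *STX3*), and below in 0, beside 20.3% higher, 30.9% lower and 51.2% in either direction over all genes, with a median log2 fold change of 1.73 over the 7 genes with counts in every class against -0.09 over all genes. They were above amacrine cells in 4 (*CACNA1F*, *CPLX4*, *CTBP2*, *STX3*) and below in 2 (*BSN*, *CPLX3*), beside 15.8% and 24.3% of all genes (40.1% in either direction). The 3 ribbon classes had equal weight in these means. For *CPLX3*, bipolar cells were at 68.2% and 82.7% of the amacrine level, rods at 4.40% and 1.55% and cones at 3.46% and 2.75%. Fitted without the dog as a block, 17 of these 25 calls missed the threshold and 8 held, namely *CABP4* and *CPLX3* against rods, *CPLX3* against cones, *CACNA1F* and *CPLX3* against Müller glia, and *CACNA1F*, *CTBP2* and *CPLX3* against amacrine cells.

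**Figure D2:**
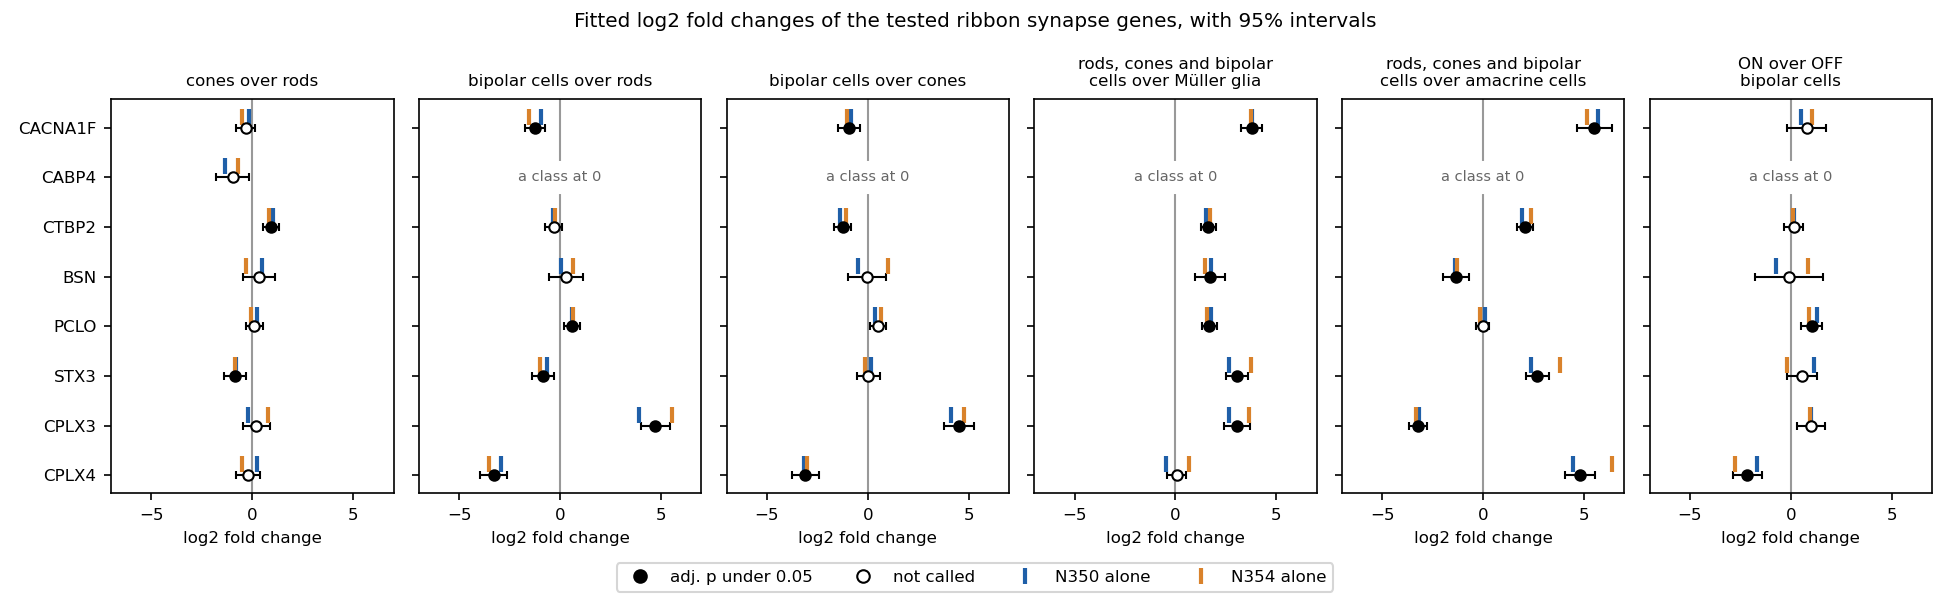
Fitted log2 fold changes of the 8 genes tested in both dogs in 6 comparisons, with 95% intervals, filled points for an edgeR adjusted p under 0.05 and coloured ticks for each dog alone. *CABP4*, without counts in bipolar cells, has a point in cones over rods only and a note in the other panels. *CPLX3* lies furthest to the right in bipolar cells over rods (4.73) and to the left against amacrine cells (-3.23). *CPLX4* lies at 0.06 against Müller glia, with the dogs on opposite sides of 0 under TMM factors. With library totals in their place the fitted value was 0.69.

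Of the 7 genes with counts in every class, *CPLX4* was the one that the test did not place above Müller glia. That test takes the mean of the log2 levels of rods, cones and bipolar cells, each with equal weight. In rods (30.6 and 13.3) and cones (32.8 and 9.39) *CPLX4* was above Müller glia in both dogs. In bipolar cells, at 4.06 and 1.31, *CPLX4* was below Müller glia in both. The 988 Müller glia of N350 held it at 14.1 (13.8 to 14.4), or 46.1% of the rod level, and the 472 of N354 at 2.33 (2.16 to 2.50), or 17.5%. In N350 96.9% of Müller glia and in N354 58.3% had at least 1 UMI. After thinning to 1000 UMIs per cell, with 23 shallower cells left out in each dog, the shares were 70.6% and 18.9%, against 8.52% and 1.19% in amacrine cells, where the unthinned shares were 33.2% and 7.41%.

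The Müller level of *CPLX4* was also read by the amount of rod RNA in the same cells. In the 148 Müller glia of N350 without a single rod marker UMI it was 13.8 (13.1 to 14.5), and in the 275 with 20 or more rod marker UMIs per 10000 it was 15.2 (14.6 to 15.8). In N354 the 92 Müller glia without rod markers held 2.24 (1.82 to 2.72) and the 107 with the most held 3.0 (2.62 to 3.40). Between the same 2 sets of cells *STX3* stood at 0.438 and 1.24 in N350 and at 0.0222 and 0.371 in N354, and *CACNA1F* at 0.00995 and 0.126 and at 0.0222 and 0.192. In each dog the *CPLX4* level of the class as a whole lay inside the Poisson interval of the cells that carried no rod marker. In cells with rod markers at under 5 UMIs per 10000, *CPLX4* was at 13.5 (13.1 to 13.9) in N350 and 2.06 (1.82 to 2.33) in N354. These intervals lay below those of the cells with 20 or more.

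**Figure D3:**
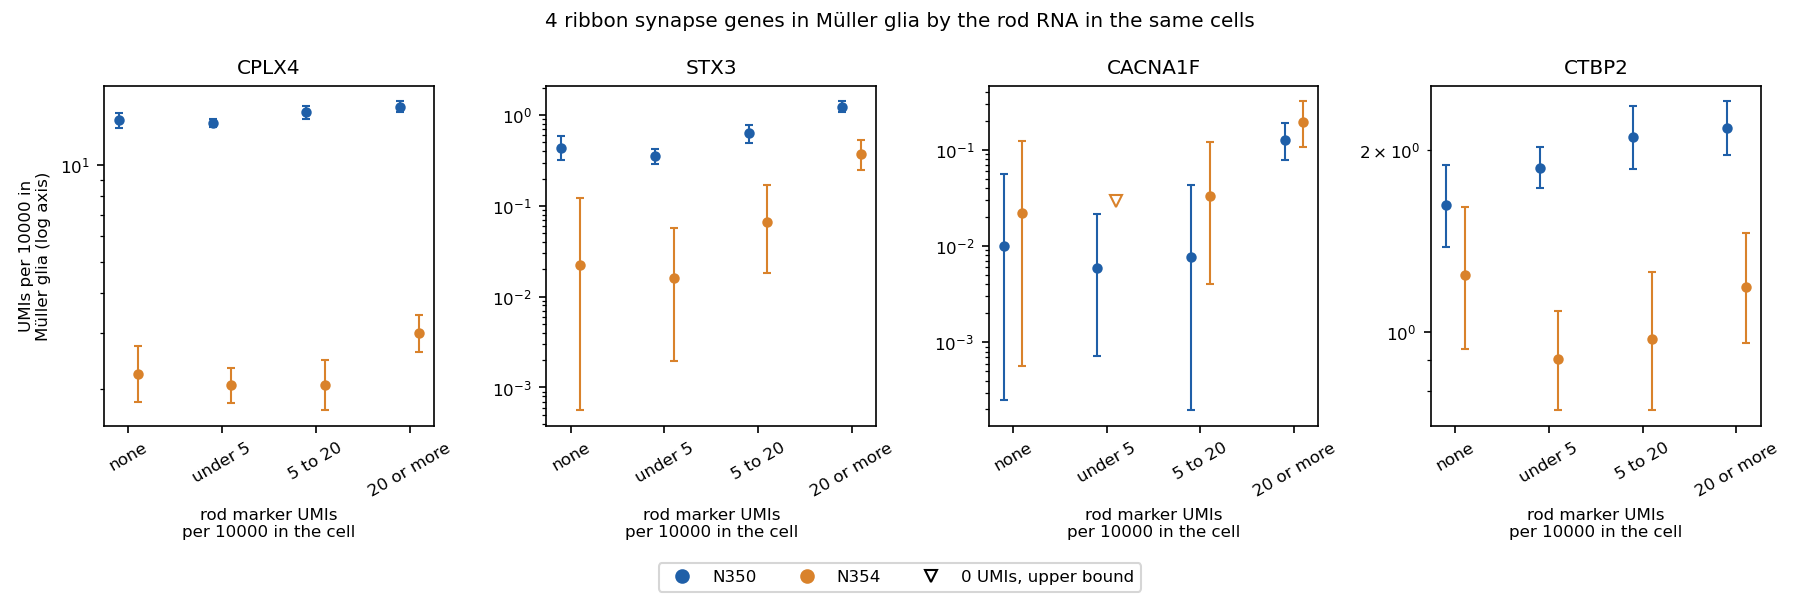
UMIs per 10000 (log axis) in Müller glia, split by the rod marker UMIs per 10000 in the same cell, for 4 genes and both dogs, with exact Poisson 95% intervals and an open triangle for the upper bound where no UMI was counted. *CPLX4* lies between 13.5 and 15.2 in N350 and between 2.06 and 3.0 in N354. *CPLX4*, *STX3* and *CACNA1F* are each highest in the cells with the most rod RNA.

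The test of the 3 ribbon classes over Müller glia gave *CPLX4* 0.06 (95% interval -0.42 to 0.55, edgeR adjusted p = 0.852), and with library totals in place of TMM factors it gave 0.69 (edgeR adjusted p = 0.0129). This scaling moved the median of all genes in that comparison by 0.63. In the RefSeq table of the assembly UU_Cfam_GSD_1.0 the neighbours of *CPLX4* are *RAX* and *LMAN1*, both also counted in Müller glia. *RAX*, a retinal homeobox gene, was at 1.28 in Müller glia, 1.09 in cones and 0.0578 in rods of N350, and at 2.50, 2.55 and 0.0729 in N354. *LMAN1*, a cargo receptor of the secretory pathway, was at 4.59 and 4.92 in Müller glia and 2.59 and 3.09 in rods. *CPLX4* in Müller glia of N354 stood at 0.165 times its level in N350, where *RAX* and *LMAN1* were both higher in N354, and the part of reads from neighbouring genes in the level of *CPLX4* was not tested.

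Bipolar cells were divided by markers into ON cells (234 in N350 and 236 in N354), which include rod bipolar cells, and OFF cells (38 and 27). Of the 8 genes, *CPLX4* was lower and *PCLO* higher in ON cells, beside 2.85% lower, 2.63% higher and 5.49% in either direction among 11848 genes. *CPLX4* was at 10.5 (8.47 to 12.9) and 5.50 (4.04 to 7.32) in OFF cells against 2.47 (2.08 to 2.91) and 0.613 (0.427 to 0.853) in ON cells, a log2 fold change of -2.16 (SE 0.35, lower in 2 of 2 dogs, edgeR adjusted p = 0.000228). OFF bipolar cells held 34.3% and 41.4% of the rod level of *CPLX4*, beside 2.26% and 4.42% for the rod markers, and ON cells held 8.06% and 4.61%, beside 4.84% and 2.35%. *PCLO* was at 3.95 and 7.59 in ON cells and 2.17 and 5.50 in OFF cells (log2 fold change 1.04, SE 0.25, edgeR adjusted p = 0.0121), and the call was lost with library totals in place of TMM factors (0.73, edgeR adjusted p = 0.0960), a scaling that moved all genes by a median of -0.32.

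Without the dog as a block neither call held. *CPLX3* was present in ON and OFF cells, at 21.5 and 26.8 in ON cells and 14.0 and 18.4 in OFF cells, with ratios of 1.53 (1.27 to 1.85) and 1.46 (1.24 to 1.73) within the dogs. The fitted difference did not reach the threshold (log2 fold change 0.996, SE 0.33, edgeR adjusted p = 0.0899). *CTBP2* was at 5.69 and 3.84 in ON cells and 6.85 and 4.80 in OFF cells, and *CACNA1F* at 0.487 and 0.719 against 0.457 and 0.468, from 4 UMIs in the OFF cells of each dog. In N354 OFF cells had a lower share of UMIs on 13 mitochondrial genes than ON cells (median 9.70% against 17.8%), in N350 a similar one (14.6% against 13.7%), and the part of this in the result was not tested.

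Among cones, *CPLX3* also differed between S cones and the rest in N350, at 1.92 against 0.806 (ratio 2.38, 1.57 to 3.53), and in N354 the 12 S cones gave 6 UMIs and a ratio of 1.28 (0.447 to 3.01). *CTBP2*, *CPLX4* and *STX3* showed no such difference, with ratios of S cones to other cones from 0.901 to 1.09 in both dogs and intervals that included 1.

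The share of a gene's UMIs in a class depends on its level and on how many cells of the class were captured. Rods held 27.3% of all UMIs in N350 and 36.7% in N354, but 84.2% and 85.3% of the *CABP4* UMIs, 69.2% and 75.5% of *CACNA1F*, and 65.8% and 76.0% of *STX3*. Müller glia held 26.4% and 10.8% of the *CPLX4* UMIs. *CPLX3* had its largest share in amacrine cells in N350 (45.6%, with 13.3% in bipolar cells) and in bipolar cells in N354 (55.6%, with 21.7% in amacrine cells), and these libraries had 247 and 27 amacrine cells.

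**Figure D4:**
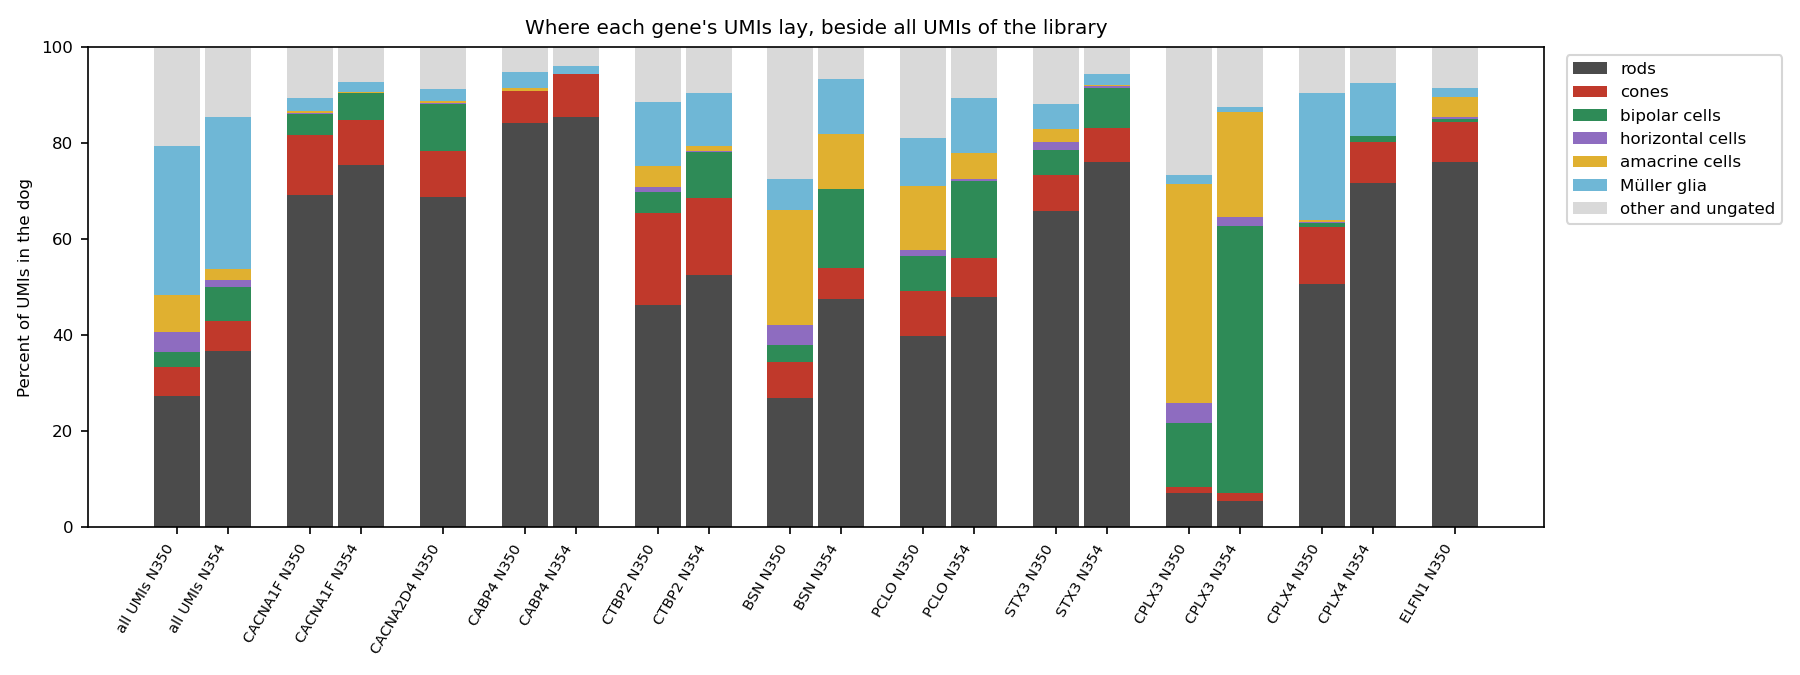
Share of each gene's UMIs (percent, stacked to 100) in each class and dog, beside the share of all UMIs in the first pair of bars; grey joins ganglion cells, astrocytes, microglia, vascular cells, cells passing more than 1 gate and ungated cells. Rods hold 84.2% and 85.3% of *CABP4*, and amacrine and bipolar cells most of *CPLX3*.

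The dogs differed in the rod level of each gene listed in both. N354 stood at 2.85 times N350 for *CABP4*, 1.82 times for *PCLO* and 1.69 times for *CACNA1F*, and at 0.556 times for *CTBP2*, 0.434 times for *CPLX4*, 0.396 times for *CPLX3*, 0.445 times for *BSN* and 0.389 times for *STX3*. *CACNA1F* and *PCLO* were higher in N354 in all 5 tested classes and *CTBP2*, *BSN*, *STX3* and *CPLX4* lower in all 5. The amacrine level of *CACNA1F* rested on 3 UMIs in N350 and 1 UMI in N354. The tables of the dogs list different genes, so that the animal and the gene models used for counting cannot be told apart.

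Other genes of the synapse, 41 in 4 groups, were counted for the same contrasts, with 38 tested. In cones over rods 7 were higher and 4 lower, beside 9.43% and 8.65% of all genes. In bipolar cells over rods 9 were higher and 11 lower (15.5% and 14.9% of all genes), and in bipolar cells over cones 9 and 12 (10.7% and 11%). The 3 ribbon classes were above Müller glia in 22 and below in 9 (20.3% and 30.9% of all genes), and above amacrine cells in 12 and below in 17 (15.8% and 24.3%).

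Among calcium channel subunits, 3 of 6 tested rose and 2 fell from rods to bipolar cells, beside 15.5% and 14.9% of all genes. *CACNA2D3*, an accessory subunit like *CACNA2D4*, was at 5.78 and 7.59 in bipolar cells against 0.0563 and 0.0224 in rods (log2 fold change 7.20, SE 0.40, edgeR adjusted p = 5.58e-11). *CACNA1D*, which encodes another L-type pore, was also higher in bipolar cells (edgeR adjusted p = 0.000122), with 9 UMIs in each dog against 0 and 3 UMIs in rods, where the ratio in N354 was 15.6 (3.90 to 89.7) and no fitted fold is given. *CACNA2D1* was at 1.37 and 4.33 in OFF bipolar cells against 0.0522 and 0.105 in ON cells (-4.71, SE 0.48, edgeR adjusted p = 7.59e-07), and *CACNA2D3* was higher in ON cells (1.49, edgeR adjusted p = 0.00712). The beta subunit gene *CACNB2* was at 2.20 and 0.693 in rods and 0.496 and 0.190 in bipolar cells (-2.10, edgeR adjusted p = 0.000162), and *CACNB4* was higher in cones than in rods (1.34, edgeR adjusted p = 0.0138).

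In the active zone group, 1 of 10 rose and 3 fell from rods to bipolar cells, beside 15.5% and 14.9% of all genes. *RIMS2*, a vesicle tethering gene of ribbon terminals, was at 6.36 and 10.1 in rods, 3.46 and 5.17 in cones and 2.90 and 4.31 in bipolar cells, with falls in cones (-0.89, edgeR adjusted p = 0.0166) and in bipolar cells (-1.30, edgeR adjusted p = 0.000468). *ERC2* fell by 1.89 on the log2 scale in bipolar cells (edgeR adjusted p = 2.44e-05). *RIMS1* was below Müller glia in the ribbon classes (-5.13, edgeR adjusted p = 2.93e-09), at 0.989 and 0.891 in Müller glia against at most 0.127 in any ribbon class. *UNC13B*, a vesicle priming gene, was higher in ON than in OFF bipolar cells (1.33, edgeR adjusted p = 0.0390).

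Of the SNARE and vesicle genes, 3 of 14 were higher and 10 lower in the ribbon classes than in amacrine cells, beside 15.8% and 24.3% of all genes. *SLC17A7*, the vesicular glutamate transporter, was at 4.68 and 1.53 in rods, 6.65 and 2.0 in cones and 3.46 and 0.978 in bipolar cells, against 0.152 and 0 in amacrine cells (edgeR adjusted p = 1.24e-09). *CPLX2* was at 0.982 and 1.49 in amacrine cells and not counted in cones of either dog. *CPLX1* was higher in cones than in rods (1.66, SE 0.40, edgeR adjusted p = 0.00531), and *SNAP25* higher in bipolar cells than in rods (2.07, edgeR adjusted p = 1.35e-06) and in ON than in OFF cells (1.39, edgeR adjusted p = 0.00081).

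**Figure D5:**
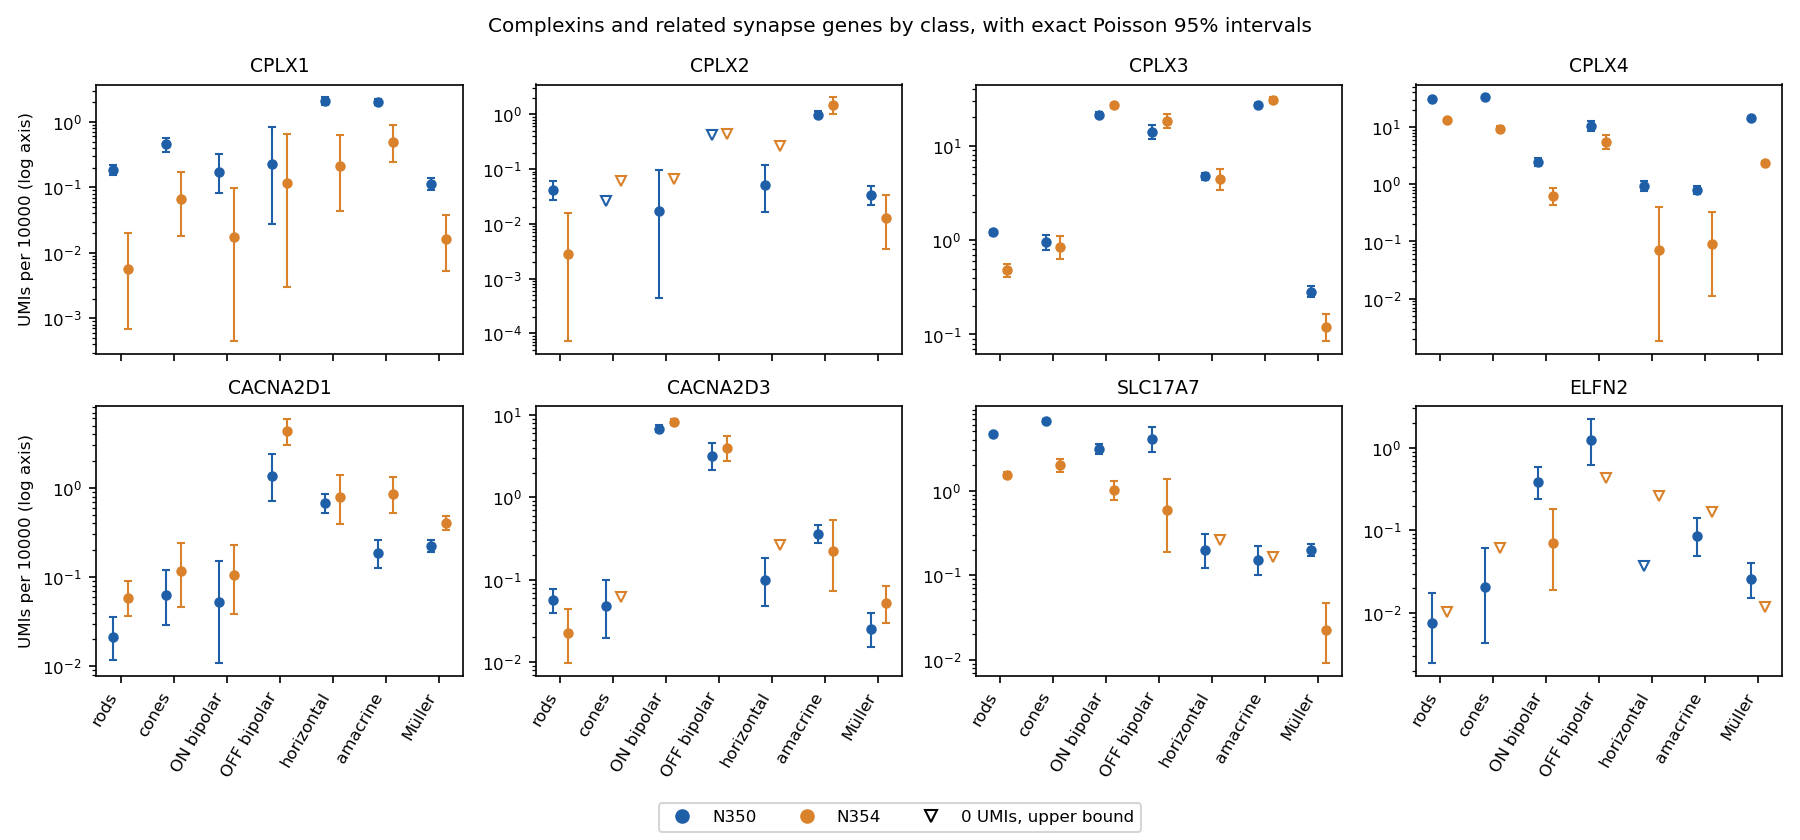
UMIs per 10000 (log axis) of the 4 complexin genes and of *CACNA2D1*, *CACNA2D3*, *SLC17A7* and *ELFN2* in 7 classes, with 1 point per dog, exact Poisson 95% intervals and open triangles for the upper bound where no UMI was counted. *CPLX2* peaks in amacrine cells (0.982 and 1.49), *CACNA2D3* in ON bipolar cells (6.80 and 8.26) and *CACNA2D1* in OFF bipolar cells (1.37 and 4.33).

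In the cleft and adhesion group, 1 of 8 rose and 5 fell from rods to bipolar cells, beside 15.5% and 14.9% of all genes. *EGFLAM*, which encodes the photoreceptor matrix protein pikachurin, was at 1.61 and 1.69 in rods and 2.82 and 2.35 in cones but 0.115 and 0.0876 in bipolar cells (-4.13 against rods, edgeR adjusted p = 7.59e-09). *LRIT3*, a photoreceptor transmembrane gene, fell in bipolar cells (-3.81, edgeR adjusted p = 3.62e-08), and so did *LRIT2* (edgeR adjusted p = 5.75e-06), with 0 and 1 UMIs in bipolar cells against 144 and 178 in rods. *ELFN2* was higher in them (edgeR adjusted p = 1.29e-06), at 0.611 in bipolar cells and 0.00761 in rods of N350, and at 0.0584, from 4 UMIs, and 0 in N354. *LRIT1* was at 3.35 and 1.63 in rods and 4.01 and 2.35 in bipolar cells, and above amacrine cells in the ribbon classes (5.58, edgeR adjusted p = 1.06e-10).

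The genes closest in pattern were sought over 14 class sums of both dogs among 6856 genes, as a description without a test, since the sums share libraries and depth. *CACNA1F* was closest to *PCBP4* (Pearson r = 0.988), *SLC17A7* (0.984) and *CCSER2* (0.978), and *CABP4* to *LRIT2* (0.976), *CFAP58* and *NRTN*. *CTBP2* was closest to *ETNK1* (0.975), *PCBP4* and *SV2B* (0.960), *STX3* to *LARP4* (0.967), *PCLO* to *PIP5K1C* (0.970), *BSN* to *MTMR9* (0.928), *CPLX3* to *CBX5* (0.953) and *CPLX4* to *MPP5* (0.937). Among the members themselves *CACNA1F* and *CTBP2* had the highest correlation (r = 0.929), and *CPLX3* and *CPLX4* the lowest (-0.61).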

How the data were processed

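Neuroretina of 2 dogs was profiled with a droplet kit that counts 3′ ends. The authors aligned and counted reads with Cell Ranger 6.0.2 per the file headers, and canFam6 is the genome named in the methods. What they deposited is a matrix of UMI counts for each dog, not normalized. The genes and lists were chosen with earlier results of these data known.

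Cells with at least 200 genes were kept, with no mitochondrial limit, since such a limit removes most bipolar cells of N354. The paper, in contrast, excluded cells above 5% mitochondrial content. Under 5% on mitochondrial names, N354 kept 1284 rods, 0 cones, 1 bipolar cell, 4 amacrine cells and 20 Müller glia. Most N354 cells of each of these classes thus lay above that limit. A cell joined a class with enough UMIs of at least 2 of its markers, as a number and per 10000 UMIs (10 and 100 in rods, 10 and 60 in cones, 6 and 20 in bipolar cells, 10 and 40 in Müller glia, 4 and 4 in amacrine cells). ON cells had at least 40 ON-marker UMIs per 10000, and OFF cells fewer than 20 with at least 2 OFF-marker UMIs. The 353 and 167 cells that passed more than 1 gate, and the 1213 and 249 that passed none, were left out. Doublets were otherwise not removed, since Scrublet in scanpy 1.11.5 marked 0% and 0.0455% of cells at its own threshold, and removal of its top 4% was an alternative. In N354, 17 repeated names were summed.

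Counts summed per dog and class were tested with edgeR 4.0.16 (quasi-likelihood, TMM, the dog as a block, at least 10 UMIs per gene, Benjamini-Hochberg over all genes; R 4.3.3) over names listed in both dogs, after the scripts were tested on simulated data. Rods, cones, bipolar cells, amacrine cells and Müller glia shared 1 fit, and ON and OFF cells took the place of bipolar cells in a second. Sums of 1 dog come from the same animal, and their deviations from the class means over 11856 genes correlated between the 5 classes with r of 0.577 to 0.796. The other synapse genes named are those that passed, at most the 4 largest per group and comparison, with levels in both dogs. Intervals were computed with scipy 1.17.1. DESeq2 1.42.0 was an alternative. One gene of the synapse lists is not reported here.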

Additional observations from a re-analysis of the deposited data

How the results depend on the processing

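With 2 animals, the intervals over cells cover counting error only, and low levels rest on few UMIs. Without the replicate block (the dog), the members higher and lower numbered 0 and 0 in cones over rods, 1 and 1 in bipolar cells over rods, 1 and 0 in bipolar cells over cones, 2 over Müller glia, 2 and 1 over amacrine cells, and 0 and 0 in ON over OFF cells. *CPLX4* then changed sign in cones over rods (0.0083) and over Müller glia (-0.22). DESeq2 left 0 members lower in cones over rods and called 2 higher in bipolar cells over cones, as did 2 times the marker UMIs (2) and library totals in place of TMM (2), where *PCLO* was added. A limit of 10% on mitochondrial names, or on 13 mitochondrial genes, left 1 member higher in bipolar cells over rods. In ON over OFF cells, without a minimum of 10 UMIs 2 members were higher, and with library totals 0. The limits on 13 genes and the library totals were chosen after seeing the data. The other reversals were of values that were not called, apart from the last 2. *BSN* in bipolar cells over rods was -0.19 under 10% on mitochondrial names and -0.046 under 10% on 13 genes, and in bipolar cells over cones 0.065 with 2 times the marker UMIs, 0.087 with DESeq2 and 0.24 with library totals. In bipolar cells over cones *PCLO* was -0.10 under 10% on 13 genes, and *STX3* -0.017 with 2 times the marker UMIs, -0.26 under 10% on 13 genes and -0.0015 without the minimum. In ON over OFF cells *CTBP2* was -0.018 with DESeq2 and -0.19 with library totals, and *BSN* 0.16 in cells with at least 1000 UMIs. *SV2A* over Müller glia went from -0.61 to 0.054 with library totals, and *RAB3A* in bipolar cells over rods, called at 0.83, ranged from -0.078 in N354 alone to 1.20 in N350 alone. No comparison could be run with under 5% of UMIs on mitochondrial names or at most 5% on 13 mitochondrial genes, since too few cones or bipolar cells were left in N354. At most 5% on 13 genes also left only 3 bipolar cells in N350. The limits on mitochondrial names acted on N354 alone, since N350 kept its 5320 rods and 330 bipolar cells under them. ON over OFF cells could not be run under either 10% limit, nor could ON over OFF cells and the amacrine comparison with 2 times the marker UMIs. Leaving out either dog leaves no residual degrees of freedom, so those values carry no test.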
